A study of Mus musculus with 576 samples.

Results

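The cells described here are those with at least 1 read on Cpa3, the gene of carboxypeptidase A3, in cultures of red cell progenitors from mouse fetal liver. A total of 66 of the 563 kept cells met this rule. The members were thus chosen by their Cpa3 count. Of these, 19 held Cpa3 at 10 CPM or more (CPM is counts per 1000000 counts of the cell) and are called Cpa3-high, and 47 held it below that level and are called Cpa3-low. The other 497 cells held no Cpa3 count. Since Cpa3 chose the cells, its values are given as a description with no test, and Cpa3 was left out of every comparison between the classes.

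Carboxypeptidase A3 is a protease stored in the secretory granules of mast cells, tissue cells that release histamine and proteases when IgE on their surface meets antigen. Basophils, their circulating relatives, and some early granulocyte progenitors also carry its transcript. The other markers fixed for a mast-like cell were Hdc, the enzyme that makes histamine from histidine, Il1rl1, the receptor for interleukin 33, and Ms4a2, the beta chain of the high-affinity IgE receptor. Erythroid and mast cells share the growth factor receptor Kit and members of the GATA family of transcription factors, with GATA1 and GATA2 at different levels.

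Each of 6 plates held 96 single sorted cells of 1 culture condition, and each well is 1 sample. The cells came from livers of C57/Bl6J embryos at day 14.5 of gestation. Before culture, antibodies had removed cells bearing CD16/32, CD41, Sca-1, Ter119, CD11b, Ly-6G, CD45R or CD3e, and a fraction enriched for burst forming unit-erythroid cells (BFU-E, early progenitors committed to red cells) was sorted by CD117, CD71 and CD24. All plates received erythropoietin (2 U/mL), SCF (stem cell factor, the Kit ligand, 100 ng/mL) and IGF1 (an insulin-like factor, 40 ng/mL). The 3 control plates had no dexamethasone, the 3 others had this synthetic glucocorticoid at 100 nM, and 1 plate of each kind was taken at 24, 48 and 72 hours (days 1, 2 and 3). A condition is therefore 1 plate, so that condition and plate cannot be told apart, and nothing in the labels says whether plates came from separate animals. Mast cells carry CD16/32 and CD117, and cells of the granulocyte line carry CD16/32 or CD11b, so the depletion, shared by all plates, bears on how many such cells entered culture.

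The promoters of the 4 marker genes are shown because Cpa3 set the classes and the other 3 genes were used to check the mast-like label. Each stretch is the 250 bases before the RefSeq start site in build GRCm38.p6, read 5′ to 3′ on the gene's strand. Capitals mark matches on either strand to AGATAA, the motif that GATA factors bind, with T also allowed as its first base and G as its last. Cpa3 lies on the minus strand (chr3:20242182-20242431), as do Hdc (chr2:126618679-126618928) and Ms4a2 (chr19:11623720-11623969), and Il1rl1 lies on the plus strand (chr1:40429320-40429569, the farther upstream of its 2 listed starts).
Cpa3: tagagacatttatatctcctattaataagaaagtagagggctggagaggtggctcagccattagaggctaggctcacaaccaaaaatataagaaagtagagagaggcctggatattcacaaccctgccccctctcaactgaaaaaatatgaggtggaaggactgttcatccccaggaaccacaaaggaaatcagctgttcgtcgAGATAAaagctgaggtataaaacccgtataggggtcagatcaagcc
Hdc: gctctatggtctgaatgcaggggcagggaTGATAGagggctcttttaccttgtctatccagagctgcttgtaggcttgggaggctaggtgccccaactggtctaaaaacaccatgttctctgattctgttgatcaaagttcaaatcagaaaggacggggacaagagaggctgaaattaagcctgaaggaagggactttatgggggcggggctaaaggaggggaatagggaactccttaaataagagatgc
Il1rl1: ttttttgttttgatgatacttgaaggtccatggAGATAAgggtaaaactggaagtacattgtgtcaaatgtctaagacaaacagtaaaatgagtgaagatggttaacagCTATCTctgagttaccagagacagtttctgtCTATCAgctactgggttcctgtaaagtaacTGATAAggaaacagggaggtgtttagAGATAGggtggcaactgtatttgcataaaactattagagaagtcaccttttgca
Ms4a2: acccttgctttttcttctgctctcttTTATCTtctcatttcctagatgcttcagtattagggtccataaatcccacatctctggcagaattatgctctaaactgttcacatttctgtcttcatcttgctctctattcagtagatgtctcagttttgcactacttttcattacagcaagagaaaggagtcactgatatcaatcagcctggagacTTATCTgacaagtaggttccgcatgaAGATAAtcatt
Cpa3 held 1 match, 46 bases before the start, and Hdc held 1, at 221 bases. Il1rl1 held 5 and Ms4a2 held 3. Of 32851 mouse promoters cut to the same length, 26.5% held at least 1 match and 6.40% held 2 or more. A match describes the letters and shows no binding.

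Cpa3 was spread unevenly over the plates and over the cells of a plate. On day 1 of control culture 20 of 94 cells had a count (21.3%, exact Clopper-Pearson 95% interval 13.5 to 30.9), on day 2 none of 96, and on day 3 it was 6 of 93 (6.45%, 2.404 to 13.5). For 0 of 96 cells, the limit that a count of 0 allows, taken as 3 cells, is a share of 3.13%, and the exact upper bound is 3.77%. With dexamethasone the numbers were 12 of 94 (12.8%, 6.77 to 21.2), 26 of 92 (28.3%, 19.4 to 38.6) and 2 of 94 (2.13%, 0.259 to 7.47). These intervals cover counting error only, since no molecular identifiers are stated and a count is a read. The 3 dexamethasone plates averaged 14.4% ± 13.1 (SD, n = 3 plates) and the 3 control plates 9.24% ± 10.9 (SD, n = 3 plates). The difference of 5.14 percentage points was within the spread between plates (exact two-sided permutation test over plates, p = 0.60, where the smallest p that 3 against 3 allows is 0.10).

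Cpa3-high cells were found on 5 plates. There were 9 on control day 1, 0 on control day 2 and 1 on control day 3, and 3, 5 and 1 on days 1, 2 and 3 of dexamethasone. The highest share, 9.57% of the cells of control day 1 (4.47 to 17.4), was in the earliest control culture. The mean share was 3.23% on dexamethasone plates and 3.55% on control plates, and the difference of -0.32 percentage points did not pass the exact permutation test (two-sided p = 0.90, 3 against 3 plates). A single cell often held most of a plate's Cpa3. On dexamethasone day 2 the highest cell gave 9731 of 12266 counts (79.3%), and with the next cell 98.8%. On control day 3 and dexamethasone day 3, 1 cell gave 98.0% and 98.6%. On control day 1 the highest cell gave 29.5%, and with the next cell 47.95%, so that this plate's counts were spread over more cells.

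**Figure D1:**
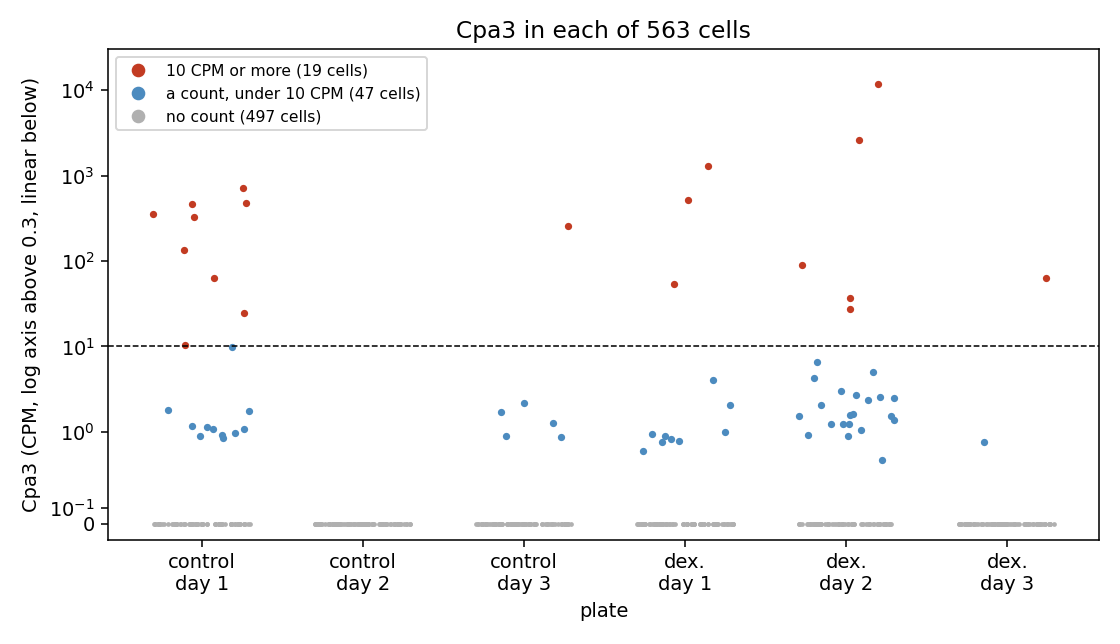
Cpa3 in each of the 563 cells, in CPM on a log axis that turns linear below 0.3, by plate. Red points are the 19 cells at 10 CPM or more, blue points the 47 cells with a count below that, grey points the 497 cells without one, and the dashed line is 10 CPM; control day 2 has grey points only.

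Among the Cpa3-high cells of control day 1 the Cpa3 values were 10.48, 24.4, 63.7, 134.5, 331.5, 357.6, 466.3, 472.3 and 716.6 CPM. On dexamethasone day 1 they were 53.5, 522.2 and 1281.3 CPM, and on dexamethasone day 2 they were 27.6, 37.3, 90.9, 2639.2 and 11945.7 CPM. The single cells of control day 3 and dexamethasone day 3 held 254.7 and 64.02 CPM. The 2 highest cells of dexamethasone day 2 stood above all others, while the rest of that plate's high cells lay in the lower part of the range. Next to the threshold lay a cell of 10.48 CPM (6 counts) inside and a cell of 9.82 CPM (9 counts) outside, both from control day 1. The next cell outside held 6.50 CPM. Of the 47 Cpa3-low cells, 26 held 1 count, 15 held 2 and 6 held 3 or more.

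The position of the Cpa3-low cells in the plates followed the sequencing indices. A well is told apart by a pair of index sequences, and wells in 1 row or column of the index grid share 1 of the pair. All 47 Cpa3-low cells shared an index with a Cpa3-high well of the same plate, against 152 of the 497 cells without a count (30.6%). Read the other way, 47 of 199 wells that shared an index with a Cpa3-high well had a count (23.6%), and 0 of 345 wells that shared none had one. The 497 and the 345 include the 96 cells of control day 2, which had no Cpa3-high well and no count. On control day 1, 62 of 74 cells without a count shared such an index (83.8%), so that plate tells the classes apart little. The share was 13.8% on control day 3 and 41.5%, 42.4% and 17.4% on dexamethasone days 1, 2 and 3. On dexamethasone day 2 the pattern was densest. Of the 21 wells with the same second index as 1 of the 2 highest cells, 19 had a Cpa3 count (90.5%), as did 5 of 12 that shared only the first index (41.7%) and 0 of 57 that shared neither.

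The counts in these wells were a small part of the highest count on the shared index. On dexamethasone day 2 the 21 Cpa3-low cells held between 0.0103% and 0.0838% of it, with a median of 0.0411%. The 9 Cpa3-low cells of dexamethasone day 1 held between 0.0792% and 0.396%. In all, 46 of the 47 Cpa3-low cells held under 5% of the Cpa3 count of a well on the same index, and so did 4 of the 19 Cpa3-high cells. These 4 were the cell of 53.5 CPM on dexamethasone day 1 and the cells of 27.6, 37.3 and 90.9 CPM on dexamethasone day 2. The 5% level was chosen after these values were seen. The one Cpa3-low cell above it was the cell of 9.82 CPM just below the threshold.

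**Figure D2:**
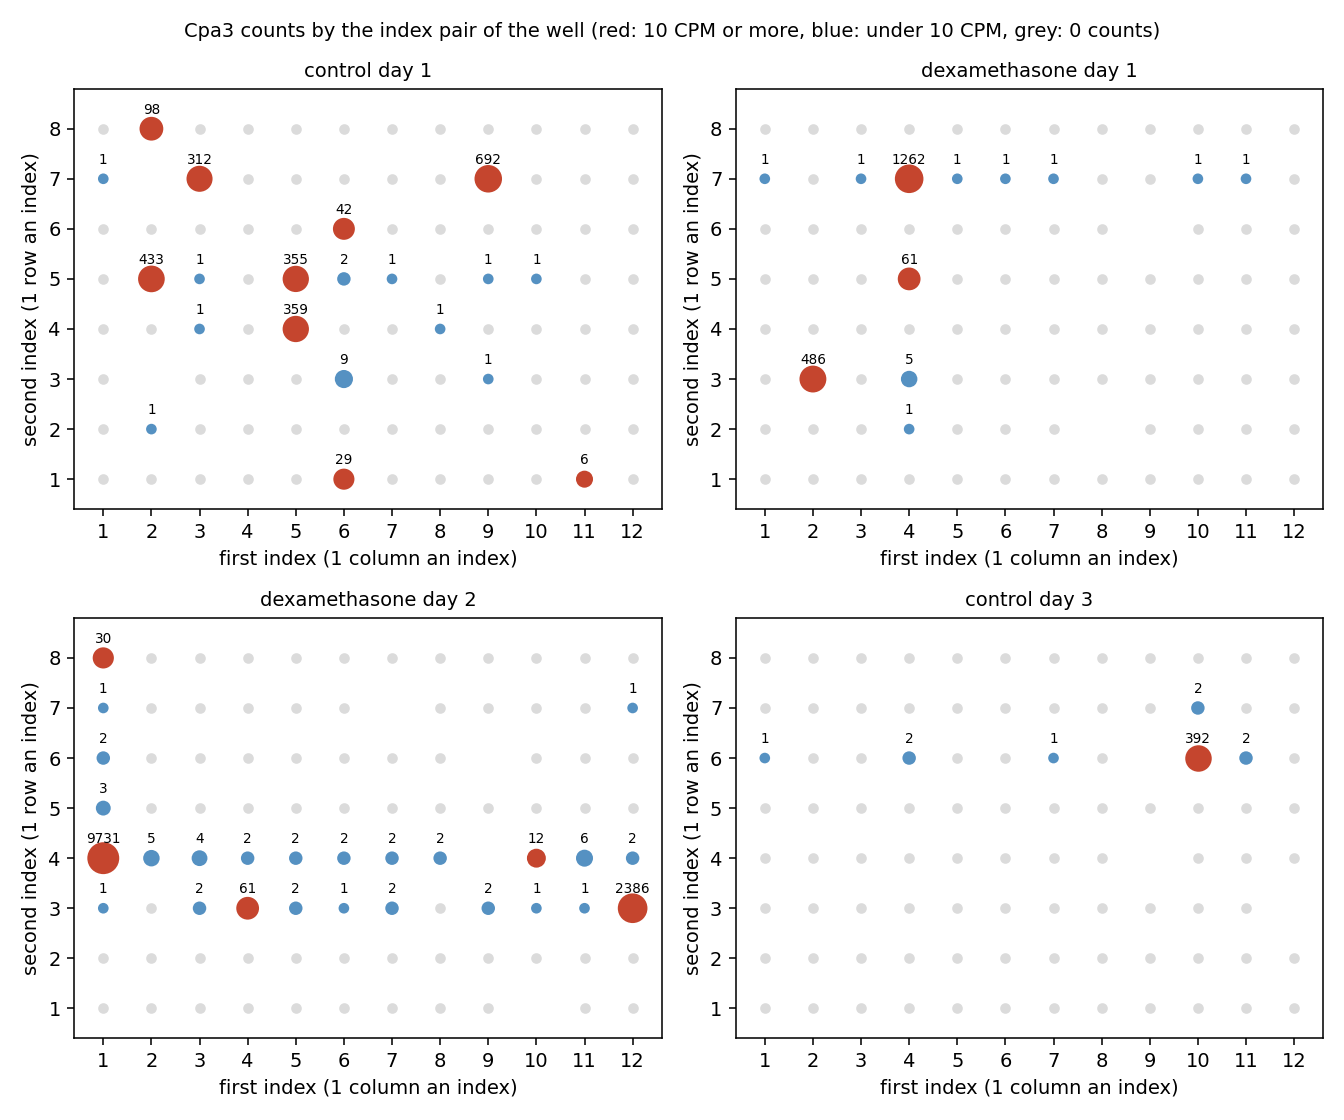
Wells of 4 plates laid out by their index pair, 1 column for each first index and 1 row for each second index, with the Cpa3 count printed over each well that has one. Red wells are at 10 CPM or more, blue wells below it, grey wells at 0, a larger dot is a higher count and gaps are wells removed; the blue wells stand in the rows and columns of red ones, most plainly around the wells of 9731, 2386, 1262 and 392 counts.

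Several other genes abundant in the highest cells had a like layout. Gzmb, the granule protease granzyme B, had 2326 counts in the 2 highest cells of dexamethasone day 2. It had 6 counts in 4 of 21 wells on the same second index, 8 counts in 5 of 12 wells that shared only the first index, and none in the 57 wells that shared neither. Ms4a2 had 1746 counts in the Cpa3-high cell of control day 3, 15 counts in 6 of the 17 wells on its indices and none in the other 75. Cma1 and Mcpt8 were exceptions in part, since 3 of 73 and 2 of 75 wells that shared neither index also held them, with 124 and 137 counts. How reads came to carry the other index was not tested. With the wells under 5% of a well on the same index counted as without Cpa3, the share of cells with a Cpa3 count was 10.6%, 0% and 1.08% on control days 1, 2 and 3 and 2.13%, 2.17% and 1.06% on dexamethasone days 1, 2 and 3. The difference between treatments then had the opposite sign (-2.12 percentage points, exact permutation p = 0.90).

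The 3 markers that the rule did not use seldom occurred together in the Cpa3-high cells. At 10 CPM or more, 4 of 19 cells held none of Hdc, Il1rl1 and Ms4a2, 9 held 1, 4 held 2 and 2 held all 3. Among the 401 cells without a Cpa3 count on the same 5 plates, 209 held none, 108 held 1, 84 held 2 and 0 held all 3. Hdc was the most frequent of the 3 in Cpa3-high cells, at 10 CPM or more in 14 of 19 (73.7%), against 19 of 47 Cpa3-low cells (40.4%) and 107 of the 401 (26.7%). Il1rl1 was the most frequent in the other classes, in 24 of 47 (51.1%) and 169 of the 401 (42.1%), against 7 of 19 Cpa3-high cells (36.8%). Only 2 of the 19 cells thus held all 4 markers of the mast-like label, and the classes are called by their Cpa3 level here.

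Hdc was high in some Cpa3-high cells of each plate that had more than 1 and at 0 in others on day 1. On control day 1 the 9 cells held 0, 0, 0, 0, 51.3, 71.7, 409.9, 493.9 and 929.5 CPM, while 1 of 74 cells without a Cpa3 count reached 10 CPM, at 68.9. On dexamethasone day 1 the 3 cells held 0, 78.4 and 443.7 CPM, and the 82 others ran from 0 to 102.8 CPM with a median of 0. The 5 cells of dexamethasone day 2 held 87.5, 192.6, 213.2, 28763.1 and 36738.2 CPM, and the 66 others ran from 0 to 1310.8 CPM with a median of 114.5. On control day 3 the single Cpa3-high cell held 1470.4 CPM, above the 214.3 CPM of the highest of the 87 others. The 3 lower cells of dexamethasone day 2 lay inside the range of the cells without Cpa3, and the 2 highest lay far above it. On dexamethasone day 1, 1 of the 3 cells lay above the others' highest value. Summed over cells, Hdc was 239.9 against 0.518 CPM on control day 1, 166.9 against 12.04 on dexamethasone day 1 and 15506.4 against 211.6 on dexamethasone day 2. The log2 fold change was 5.47 (SE 1.01), with no call (edgeR quasi-likelihood test, adjusted p = 0.157).

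Il1rl1 did not follow Cpa3. The values on control day 1 were 0 in 6 cells and 26.2, 61.8 and 266.2 CPM in the others, against 3.11 CPM in the summed cells without Cpa3. On dexamethasone day 1 the 3 cells held 0, 1.08 and 1.75 CPM, below the 30.3 CPM of the summed other cells. The values on dexamethasone day 2 were 1.49, 4.97, 16.1, 817.4 and 1648.7 CPM, against a median of 104.3 and a highest value of 496.0 in the 66 others. The direction thus differed between plates, and the log2 fold change was 1.74 (SE 1.65, edgeR adjusted p = 0.767).

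Ms4a2 was held by 2 Cpa3-high cells, at 181.3 CPM in 1 cell of control day 1 and at 1134.5 CPM in the cell of control day 3, and was at 0 in the other 17. No cell without a Cpa3 count reached 10 CPM, and 6 of those 401 had any Ms4a2 count. Fcer1a, the IgE-binding chain of the same receptor, was at 0 in all 19 Cpa3-high cells. Fcer1g, its signalling chain that other Fc receptors also use, was at 10 CPM or more in 16 of 19 Cpa3-high cells and in 48 of the 401 (11.97%). Hdc and Il1rl1 were also common in cells without Cpa3 under dexamethasone. Summed over those cells, Hdc was 0.518, 2.80 and 3.84 CPM on control days 1 to 3 and 12.04, 211.6 and 38.07 CPM on dexamethasone days 1 to 3. Il1rl1 was 3.11, 12.2 and 7.90 CPM on control days and 30.3, 134.6 and 67.5 CPM on dexamethasone days. Each dexamethasone plate stood above each control plate for both genes.

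The 2 highest cells of dexamethasone day 2 formed a kind of their own. With Cpa3 at 11945.7 and 2639.2 CPM they held Gzmb at 1090.1 and 1590.6 CPM, and of the 401 cells without Cpa3 none reached 10 CPM of Gzmb. Cma1, the mast cell chymase, was at 1499.9 CPM in the second of them and 0 in the first. Tpsb2, a mast cell tryptase, was at 27.01 CPM in the first and 0 in the second. Srgn, the proteoglycan core that holds granule proteases, was at 4017.9 and 2526.3 CPM, where the highest of the plate's 66 cells without Cpa3 held 1223.2. The granule proteases Mcpt1, Mcpt2, Mcpt4, Mcpt9, Cma2, Tpsab1, Tpsg1 and Prss34 were at 0 in all 19 Cpa3-high cells.

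Genes of mediator synthesis and receptor signalling also stood out in the same pair. Ptgs2, the inducible cyclooxygenase of prostaglandin synthesis, was at 656.8 and 705.7 CPM, and Hpgds, which makes prostaglandin D2, at 466.5 and 293.1 CPM. Tph1, an enzyme of serotonin synthesis, was at 330.2 CPM in the first cell and 0 in the second. The adaptor Lcp2 was at 508.2 and 585.1 CPM, and Rab27b, a GTPase of granule release, at 1419.1 and 1845.0 CPM. Csf2rb, the shared receptor chain for interleukin 3, interleukin 5 and GM-CSF, was at 5068.7 and 8991.5 CPM. Kit was at 5427.2 CPM in the first cell, above the 1651.7 CPM of the plate's highest cell without Cpa3, and at 798.6 CPM in the second. Ms4a2 was at 0 in both, and Mpo, the granulocyte peroxidase, was at 4.91 and 2.21 CPM.

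The cell of control day 3 differed from this pair. It held Cpa3 at 254.7, Hdc at 1470.4, Il1rl1 at 197.5 and Ms4a2 at 1134.5 CPM, with Mcpt8, a protease best known from basophils, at 998.0 CPM. Csf2rb was at 3502.2 and Srgn at 2740.7 CPM. Kit was at 18.2 CPM, the lowest of the 19 Cpa3-high cells, and Gzmb, Cma1 and Ptgs2 were at 0. It also held Mpo at 6880.3 and Ctsg, a neutrophil and mast cell protease, at 2784.9 CPM. Il4 was at 32.5 CPM in this cell and at 28.2 CPM in the highest cell of dexamethasone day 2, and at 0 in the other 17.

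**Figure D3:**
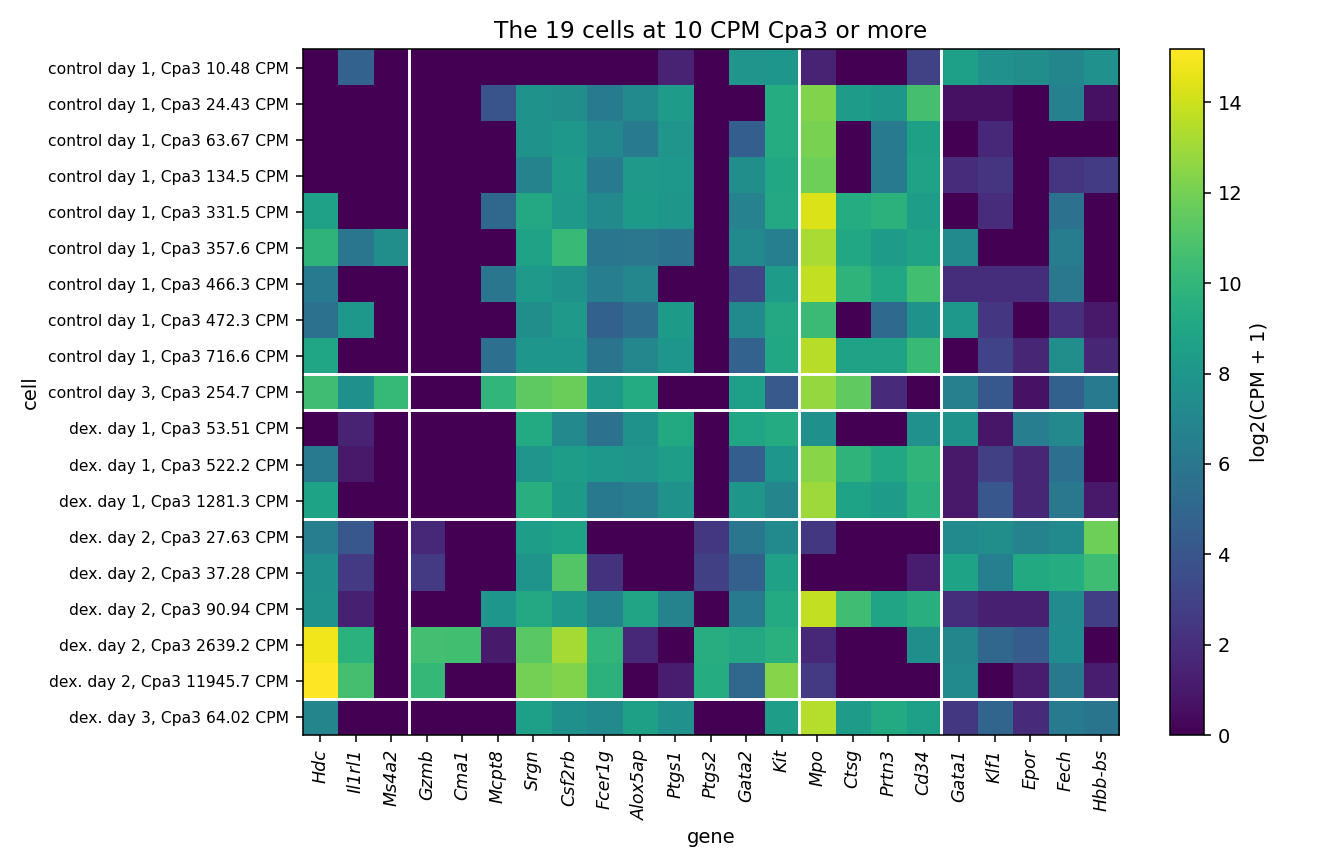
The 19 Cpa3-high cells in rows, by plate and rising Cpa3, and 23 genes in columns, with log2(CPM + 1) as colour. The first block holds the 3 markers, the second genes of mast cells and basophils with Kit, the third Mpo, Ctsg, Prtn3 and Cd34, the fourth erythroid genes; the 2 highest cells of dexamethasone day 2 carry Gzmb and Ptgs2 with little Mpo, and 13 cells carry Mpo above 1000 CPM.

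Most Cpa3-high cells carried Mpo, while in the sums the neutrophil and monocyte list had a median close to that of all genes. Against cells without Cpa3, 7 of its 17 genes had a positive fold change (41.2%, beside 28.5% of all genes tested) and 10 a negative one. None had an unadjusted p under 0.05, and the median was -0.52, beside -0.54 over all genes. Elane, the neutrophil elastase, was 78.9 against 0.202 CPM on control day 1, but 0 counts against 0.401 CPM on dexamethasone day 1 and 0 counts against 22.9 CPM on dexamethasone day 2. Mpo was at 1000 CPM or more in 13 of 19 (68.4%) and in 20 of the 401 cells without Cpa3 (4.99%). Of the 13, 8 came from control day 1 and 1 from dexamethasone day 2. These shares pool cells of 5 plates and carry no test. On control day 1 the 9 cells held Mpo at 1.75, 1291.5, 3576.1, 4452.3, 4938.0, 9852.7, 11827.7, 14020.3 and 21350.6 CPM, and 8 of them thus lay above the 3.38 CPM median of the 74 others. Those others reached 10718.0 CPM, so the ranges overlapped. At least 2 genes of the neutrophil and monocyte list were at 10 CPM or more in 14 of 19 Cpa3-high cells and in 53 of the 401 (13.2%). Prtn3, a neutrophil granule protease, ran from 2.60 to 872.1 CPM in the 13 cells with Mpo, and Cd34, a surface protein of early progenitors, was at 10 CPM or more in 12 of them.

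Gata1, the factor that drives the erythroid programme, was low in the same cells. It was under 10 CPM in 10 of 19 Cpa3-high cells, all with Mpo at 1000 CPM or more, and in 31 of the 401 (7.73%). Mpo and Gata1 both above these levels were found in 3 Cpa3-high cells and in 2 of the 401. A well with 2 cells would give such a pair too, and this was not tested. Conversely, of the 36 cells of all plates with Mpo at 1000 CPM or more, 13 were Cpa3-high, 3 Cpa3-low and 20 had no Cpa3 count.

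Within those Mpo cells the Cpa3 classes differed in some mast cell genes. Hdc was at 10 CPM or more in 10 of the 13 Cpa3-high and 6 of the 20 without Cpa3, and Rab44, a GTPase of mast cell granules, in 13 of 13 and 11 of 20. Gata2, a factor of mast cells and of early progenitors, was at that level in 10 of 13 and 8 of 20. Fcer1g was there in 13 of 13 and 19 of 20, Srgn in 13 of 13 and 20 of 20, and Alox5ap, which presents arachidonate to 5-lipoxygenase, in 13 of 13 and 20 of 20. These counts are over cells of several plates and carry no test. On control day 1 alone, with 8 and 4 such cells, Hdc was at 10 CPM in 5 and 1 and Rab44 in 8 and 1.

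**Figure D4:**
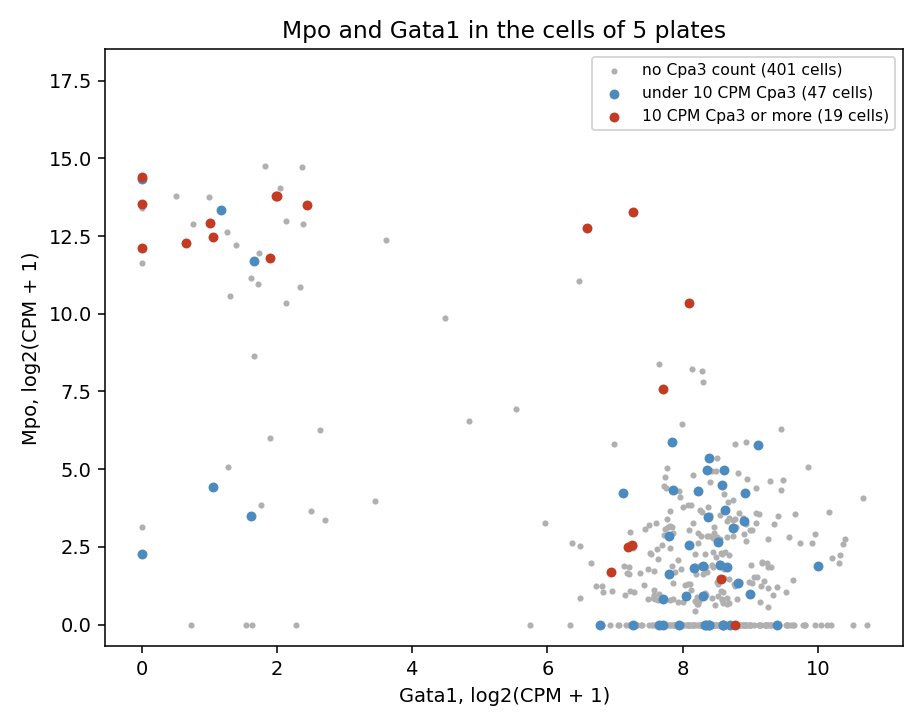
Mpo against Gata1 in each cell of the 5 plates with a Cpa3 count, both as log2(CPM + 1), with the 19 Cpa3-high cells in red, 47 Cpa3-low cells in blue and 401 cells without Cpa3 in grey. Of the red points, 10 lie at upper left with high Mpo and Gata1 under 10 CPM, 3 at upper right with both, and 6 below 1000 CPM of Mpo.

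The other 6 Cpa3-high cells, with Mpo under 1000 CPM, all held Gata1 above 100 CPM. The pair with the highest Cpa3, on dexamethasone day 2, held Gata1 at 152.2 and 121.7 CPM. The other 4 held it at 379.0 CPM (control day 1, Cpa3 10.48 CPM), 207.9 CPM (dexamethasone day 1, Cpa3 53.5 CPM), and 145.0 and 437.4 CPM (dexamethasone day 2, Cpa3 27.6 and 37.3 CPM). The last 2 also held Hbb-bs, an adult beta-globin gene, at 3671.8 and 1397.9 CPM, and Epor, the erythropoietin receptor, at 110.5 and 585.2 CPM. Of these 4, 3 are among the cells named above that held under 5% of the Cpa3 count of a well on the same index. The remaining one held 6 Cpa3 counts and sat at the threshold.

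Tested over plates, the 3 classes were summed within each plate where at least 3 cells allowed it. This gave Cpa3-high sums on 3 plates (control day 1, dexamethasone days 1 and 2), Cpa3-low sums on 4 and sums without Cpa3 on 6. Between Cpa3-high and no Cpa3, 1 of 20143 genes passed an adjusted p of 0.05 in edgeR's quasi-likelihood test with plate as a block, a background of 0.00496%. That gene was Asns, which makes asparagine and is induced when amino acids run short. At an unadjusted p under 0.05 there were 1935 genes, or 9.61%, 289 higher (1.43%) and 1646 lower (8.17%). DESeq2 on the same sums called 1377 genes (349 higher, 1028 lower) and limma on mean log2(CPM + 1) called 214 (141 higher, 73 lower), so the number of calls depended on the model. Of the genes named below, Rab44, Cd34, Erg, Klf1, Fech and Cpox were named by rank within a list, and the others were chosen after their values were seen. Over all genes tested the median log2 fold change was -0.54, and -0.35 with RLE scaling in place of TMM. A positive fold change was found in 28.5% of all genes, so the list counts below are given beside that share.

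Asns was lower in Cpa3-high cells on all 3 plates. The 9 cells of control day 1 ran from 4.12 to 374.6 CPM with a median of 212.9, and the 74 others from 1.504 to 2477.6 with a median of 718.6. On dexamethasone day 1 the 3 cells held 131.6, 138.6 and 230.5 CPM, and the 82 others had a median of 632.5. The 5 cells of dexamethasone day 2 held 2.46, 95.1, 108.8, 393.7 and 1006.5 CPM, and the 66 others had a median of 1181.7. The ranges overlapped on each plate, while the medians were lower on each. The log2 fold change was -1.92 (SE 0.15, edgeR adjusted p = 0.0254, lower on 3 of 3 plates). The single Cpa3-high cells of control day 3 and dexamethasone day 3, which did not enter the test, held 483.4 and 136.0 CPM against medians of 1401.1 and 1023.4. The call did not hold without the control day 1 plate (adjusted p = 0.339), without dexamethasone day 1 (0.255) or without dexamethasone day 2 (0.0547), and with RLE scaling the edgeR adjusted p was 0.0888. Asns was also called in Cpa3-high against Cpa3-low cells, where it was the single gene of 20143 to pass (0.00496%, log2 fold change -1.86, adjusted p = 0.0342). At an unadjusted p under 0.05 that comparison had 1639 genes (8.14%), of which 573 were higher (2.84%) and 1066 lower (5.29%).

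Erythroid genes were lower in the Cpa3-high sums, with no call for any of them. Of the 19 tested genes that make heme or handle iron, 18 had a negative fold change. The positive share was 5.26%, beside 28.5% of all genes. Of the 19, 13 had an unadjusted p under 0.05, all lower, beside 8.17% of all genes. The median log2 fold change was -1.04, beside -0.54 over all genes. Fech, which inserts iron into heme, was 75.04 against 446.6 CPM on control day 1, 87.7 against 405.8 on dexamethasone day 1 and 252.4 against 673.9 on dexamethasone day 2 (log2 fold change -2.06, SE 0.26, edgeR adjusted p = 0.0963). Cpox, an earlier enzyme of the pathway, was at -2.39 on the same scale (SE 0.33, adjusted p = 0.122). Tfrc, the transferrin receptor that brings in iron and is the CD71 used in the sort, was at -1.11 (SE 0.23, adjusted p = 0.185).

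Among 26 genes of the red cell membrane and late erythroid cells, 24 had a negative fold change. The positive share was 7.69%, beside 28.5% of all genes. Of the 26, 14 had an unadjusted p under 0.05, all lower, beside 8.17% of all genes. The median was -2.13, beside -0.54 over all genes. Prdx2, the abundant peroxiredoxin of red cells, was at -1.29 (SE 0.17, adjusted p = 0.0963). The 7 globin genes had a median of -2.68 and none had a positive value, beside 28.5% of all genes. Among them Hbb-bs has a near-identical copy in Hbb-bt, as Hba-a2 has in Hba-a1, and counting may exchange or lose such reads, so that list is uncertain.

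Of 16 erythroid transcription factors and partners, 14 had a negative fold change. The positive share was 12.5%, beside 28.5% of all genes. Of the 16, 8 had an unadjusted p under 0.05, all lower, beside 8.17% of all genes. The median was -1.36, beside -0.54 over all genes. Klf1, the factor that switches on adult beta-globin, was 16.8 against 401.1 CPM on control day 1, 7.53 against 259.3 on dexamethasone day 1 and 50.4 against 230.9 on dexamethasone day 2 (log2 fold change -3.75, SE 0.66, adjusted p = 0.139). Gata1 was 77.1 against 365.4, 78.2 against 311.0 and 179.4 against 278.3 CPM on the same plates (-1.67, SE 0.35, adjusted p = 0.203). In sums, fewer cells with a transcript and less of it in each cell cannot be told apart. In single cells, Gata1 was at 10 CPM or more in 9 of 19 Cpa3-high cells and 370 of the 401 without Cpa3. Those 9 held 95.5 to 437.4 CPM, beside a median of 314.0 CPM over the 401.

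Mast cell and basophil genes were higher in the Cpa3-high sums than in the sums without Cpa3, again with no call. Among cells with Mpo at 1000 CPM or more, the medians of Srgn, Fcer1g and Alox5ap were lower in Cpa3-high cells, as given above. Their higher sums are thus not particular to Cpa3-high cells. Leaving out Cpa3, 6 of 7 granule proteases and proteoglycans tested had a positive fold change (85.7%, beside 28.5% of all genes). The median was 4.28, and 3 had an unadjusted p under 0.05, all higher, beside 1.43% of all genes. The 8 other measured members had too few counts for the test, and members with counts mainly in Cpa3-high sums had to differ to enter it, so the count is no support for the list. Srgn was 267.7 against 75.8 CPM on control day 1, 551.8 against 143.7 on dexamethasone day 1 and 1729.6 against 249.5 on dexamethasone day 2 (log2 fold change 1.94, SE 0.34, edgeR adjusted p = 0.138). Of 22 surface receptors tested, 15 had a positive fold change (68.2%, beside 28.5% of all genes), with a median of 1.48. The same limit on entry to the test holds for this list, so its count is no support either. Csf2rb was 348.6 against 9.17, 258.5 against 16.6 and 3971.2 against 519.5 CPM (4.15, SE 0.96, adjusted p = 0.226). Csf2rb2, the closely related chain of the interleukin 3 receptor, was 22.5 CPM against 0 counts on control day 1, 32.7 against 1.57 on dexamethasone day 1 and 1289.2 against 53.5 on dexamethasone day 2 (edgeR adjusted p = 0.226), and reads of this pair may be exchanged. Fcer1g was at 3.83 (SE 1.45, adjusted p = 0.489).

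Of 18 genes of mediator synthesis and storage, 15 had a positive fold change (83.3%, beside 28.5% of all genes). The median was 2.15, and 1 had an unadjusted p under 0.05 (5.56%, beside 9.61% of all genes). Here too members with counts mainly in Cpa3-high sums had to differ to enter the test. The count is thus no support for the list. Alox5ap was 140.7 against 17.9, 178.7 against 22.6 and 84.3 against 7.75 CPM on the 3 plates (2.53, SE 1.13, adjusted p = 0.524). In single cells Alox5ap was at 10 CPM or more in 14 of 19 Cpa3-high cells, and at 0 and 2.21 CPM in the 2 highest cells of dexamethasone day 2. Of 21 genes of IgE receptor signalling tested, 19 had a positive fold change (90.5%, beside 28.5% of all genes). The median was 0.91, and 3 had an unadjusted p under 0.05 (14.3%, beside 9.61% of all genes). Rac2, a GTPase of blood cells, was 669.3 against 237.7, 878.7 against 339.2 and 697.8 against 489.4 CPM (1.06, SE 0.21, adjusted p = 0.1815). Among 17 granule and exocytosis genes tested, 8 had a positive value (47.1%, beside 28.5% of all genes). Rab44, from that list, was at 4.94 (SE 2.22, edgeR adjusted p = 0.524).

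Transcription factors of mast cells and basophils were split. Of 20 tested, 12 had a positive and 8 a negative fold change. Gata2 was 87.3 against 27.7, 271.6 against 66.99 and 175.3 against 114.5 CPM (1.02, SE 0.54, adjusted p = 0.571), and Runx1, a regulator of blood stem cells, was at 0.86 (SE 0.32, adjusted p = 0.487). Ikzf1, the lymphoid factor Ikaros, was 113.9 against 262.4, 62.8 against 261.2 and 35.6 against 164.2 CPM (-1.88, SE 0.30, adjusted p = 0.124). Early progenitor genes had a positive value in 17 of 20 with a median of 0.95. Cd34 was 803.6 against 92.1, 628.0 against 63.9 and 181.9 against 12.04 CPM (2.86, SE 1.43, adjusted p = 0.555), and Erg was at 4.61 (SE 1.97, adjusted p = 0.514). Mpo was 8376.5 against 205.2, 4327.9 against 194.6 and 2609.3 against 371.4 CPM (3.39, SE 1.97, adjusted p = 0.605), so it moved with the mast cell genes, and its part in their values was not tested.

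The lists were also scored in each cell as the mean of log2(CPM + 1), and the median cell of each class compared within the plate. Red cell membrane genes differed by -2.57, -2.67 and -2.69 on control day 1 and dexamethasone days 1 and 2, a mean of -2.64 ± 0.06 (SD, n = 3 plates). Heme and iron genes differed by -1.82 ± 0.18 and erythroid factors by -1.76 ± 0.47. Genes of IgE receptor signalling differed by 1.42 ± 0.15 (SD, n = 3 plates), mediator genes by 1.02 ± 0.41, granule proteases by 0.98 ± 0.35 and surface receptors by 0.95 ± 0.34. The neutrophil and monocyte list differed by 2.35, 2.18 and 0.01, and the early progenitor list by 2.15, 2.22 and 0.16. Those 2 lists thus set the Cpa3-high cells of day 1 apart but not the median Cpa3-high cell of dexamethasone day 2, which had little Mpo. Of the 5 Cpa3-high cells of that plate, 3 held under 5% of the Cpa3 count of a well on the same index. The median cell of that plate therefore rests in part on them, and their part was not tested. With 3 plates the smallest p an exact two-sided sign-flip test allows is 0.25, which these lists reached, and 0.393 after adjustment over 22 lists.

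**Figure D5:**
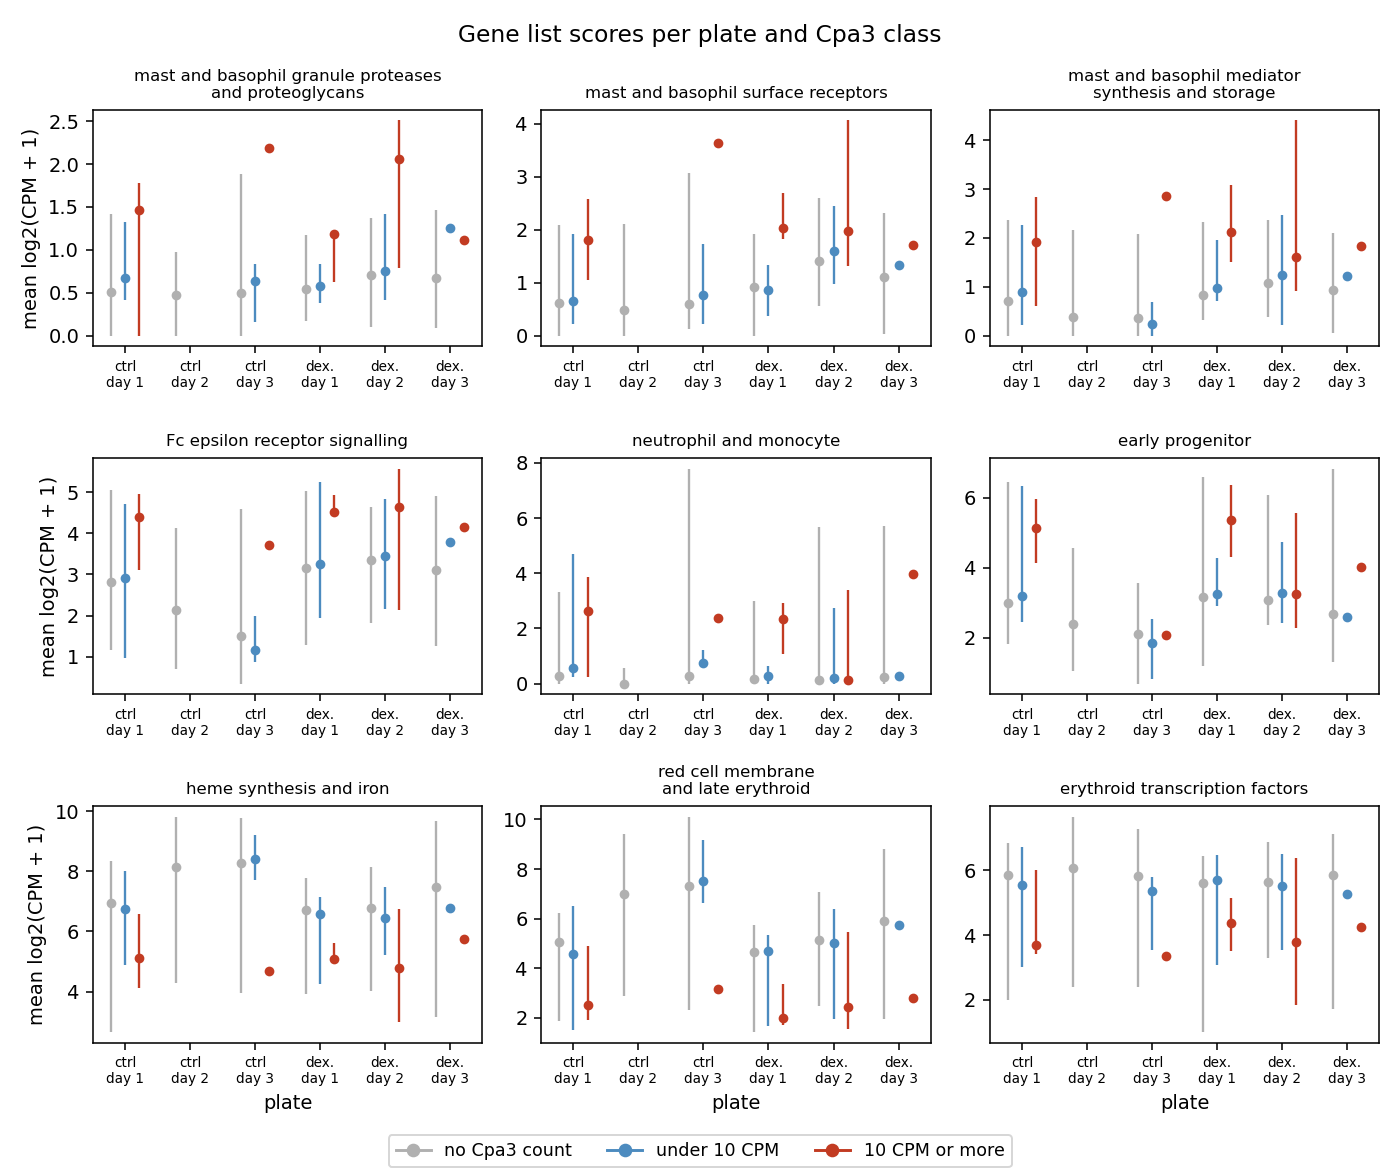
Scores of 9 gene lists, the mean of log2(CPM + 1) over a list's genes without Cpa3, by plate and class. Points are the median cell and lines run from the lowest to the highest cell of Cpa3-high (red), Cpa3-low (blue) and no Cpa3 (grey); blue medians lie near grey ones, and red medians lie below grey ones in the 3 erythroid lists.

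No gene was called between the Cpa3-low cells and the cells without Cpa3 in edgeR. None of 20143 genes passed the adjusted p of 0.05 (0.0%), 467 had an unadjusted p under 0.05 (2.32%, with 42 or 0.209% higher and 425 or 2.11% lower), and DESeq2 called 402. A p above the threshold does not show that the classes are alike. Their score differences from cells without Cpa3 averaged 0.10 for granule proteases, 0.08 for surface receptors, -0.09 for red cell membrane genes and -0.12 for heme and iron genes, against 0.98, 0.95, -2.64 and -1.82 for the Cpa3-high cells. Other lists differed more: immediate early genes by -0.38, S phase genes by -0.37, glucocorticoid receptor targets by -0.29 and neutrophil and monocyte genes by 0.25 (means of 4 plates). Except for S phase, these had 1 sign on all 4 plates (exact two-sided sign-flip p = 0.125, the smallest that 4 plates allow, and 0.6875 adjusted over 22 lists). The granule protease list also had 1 sign on all 4 plates, at 0.16, 0.15, 0.04 and 0.04, with the same p in that test. For S phase genes and glucocorticoid receptor targets the Cpa3-high difference was the smaller, at -0.20 and -0.08, and the 2 differences were not tested against each other. Gata1 was at 10 CPM or more in 41 of 47 Cpa3-low cells (87.2%) and 370 of the 401 without Cpa3 (92.3%), against 9 of 19 Cpa3-high cells (47.4%). The larger share of Cpa3-low cells with Hdc, 40.4% against 26.7%, moved with the plate, as 21 of the 47 came from dexamethasone day 2, where Hdc was common without Cpa3. On that plate 16 of 21 Cpa3-low cells and 49 of 66 cells without Cpa3 held Hdc at 10 CPM or more.

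Detection of transcripts can follow depth, and the median depth was lower in Cpa3-high cells. Against cells without Cpa3 it was 916737 and 921432 counts on control day 1, where the classes were close. It was 984919 and 1247015 on dexamethasone day 1, and 804797 and 1132829 on dexamethasone day 2. Over the 5 plates the median total was 916737 counts in Cpa3-high, 1077212 in Cpa3-low and 1129732 in the 401 cells without Cpa3. With cells thinned to 500000 counts, which left out 2, 1 and 16 shallower cells, Mpo was detected in 94.1%, 67.4% and 48.6%, against 94.7%, 72.3% and 59.6% unthinned. Hdc was detected in 76.5%, 58.7% and 32.5%, against 73.7%, 65.96% and 36.9%. Over all plates kept cells held 66140 to 3757116 counts.

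Many but not all markers of several other cell types were at 0 in the Cpa3-high cells. The lymphoid, endothelial and hepatocyte lists summed higher there than in the 401 cells without Cpa3. Of 9 eosinophil genes 3 had a count, at most 85.1 CPM summed in a cell, and Prg2, Prg3, Epx, Ear1, Ear2, Ear6 and Ccr3 are the defining ones, of which 6 were at 0. Of 12 macrophage genes 2 had a count, Adgre1 and Axl, and C1qa, C1qb, C1qc, Cd5l and Timd4 were at 0. Adgre1, a macrophage marker, was at 41.6 CPM in the Cpa3-high sum of dexamethasone day 1. It had 127 counts in the Cpa3-high sums, against 2 in the sums without Cpa3 of the same plates. In the Cpa3-high sums of control day 1 and dexamethasone day 2 Adgre1 was at 0. Of 14 lymphoid genes 7 had a count, with a summed median of 57.8 CPM against 0 in the 401, and Cd3e, Cd79a and Pax5 were at 0. The lymphoid score per cell differed by 0.65, 0.44 and 0.68 on the 3 plates (0.59 ± 0.13, SD, n = 3 plates), so it moved with the mast cell lists, and its part in them was not tested. Of 7 endothelial genes 2 had a count, Pecam1 and Tek, with a summed median of 42.6 CPM against 0, and Cdh5, Kdr, Stab2, Lyve1 and Emcn were at 0. Of 8 hepatocyte genes 3 had a count, Afp, Apoa1 and Trf, with a summed median of 9.82 CPM against 0, and Alb and Ttr were at 0. Megakaryocyte and platelet genes differed in direction between measures. They summed to 62.2 to 2194.8 CPM in Cpa3-high cells with a median of 465.2, and to a median of 216.2 in the 401 cells without Cpa3. At least 5 of these genes were at 10 CPM or more in 5 of 19 Cpa3-high cells and in 98 of the 401 (24.4%). In the class sums, 13 of 17 such genes had a negative fold change. The positive share was 23.5%, near the 28.5% of all genes tested. Of the 17, 7 had an unadjusted p under 0.05, and 6 of these were lower, beside 8.17% of all genes. The median was -1.88, beside -0.54 over all genes, while the score per cell differed by 1.03, 0.45 and -0.48 on the 3 plates. Without the cells with at least 5 of these genes, edgeR called 0 genes between Cpa3-high and no Cpa3 (1535 at an unadjusted p under 0.05).

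A test of whether dexamethasone alters the difference between Cpa3-high cells and the others was not run, since only 1 control plate had 3 or more Cpa3-high cells.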

How the data were processed

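RNA was measured in single cells sorted into wells, 1 library a well. Per the submitters' processing notes, the authors used STAR 2.4, featureCounts and GRCm38. The gene annotation, the use of strand and how multiply mapped reads were counted stand in none of the sources used here. The deposited values are counts of reads per gene, not normalized, in 1 table of 49466 genes. Of 576 columns, 575 matched a labelled well and 1 was not used.

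Wells with at least 50000 counts, 1500 genes and at most 20% mitochondrial counts were kept, and 12 were removed. The members and gene lists were chosen with earlier results of these data known. Classes were set by Cpa3 (no count, under 10 CPM, 10 CPM or more). Counts were summed per plate and class (at least 3 cells, 13 sums, 5 residual degrees of freedom) and tested with edgeR 4.0.16 (TMM, filterByExpr, robust quasi-likelihood test, plate as a block, Benjamini-Hochberg over all genes), under R 4.3.3. The block is the plate from which both classes were taken, so classes were compared within plates. Genes were to be named by rank within each list, and those named otherwise are said to be so. DESeq2 1.42.0 and limma 3.58.1 were alternatives, as were other scalings, thresholds and filters, thinning to 500000 counts, and leaving out each plate. Shares of cells and list scores were compared over plates by exact permutation tests (scipy 1.17.1). The edgeR script was tested on simulated data. No doublet caller was run. A few members of the lists are not reported here by name. Kept wells held 66140 to 3757116 counts, with a median of 1092431. Intervals are exact Clopper-Pearson at 95%. Nothing in the labels says that plates were separate cultures or animals, so p-values reflect only how these plates vary, which can be technical.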

Additional observations from a re-analysis of the deposited data

Results flagged for a closer look

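Within a plate, cells far from the other Cpa3-high cells were looked for by the gap to the nearest cell. Of 21 groups of cells checked, 6 passed the 95% limit. That limit gives about 1 in 20 by chance only for normally distributed values. The CPM values were skewed, and most cells of some groups held no count, so 6 of 21 cannot be read as an excess over chance. On control day 1 the cells past the limit were the highest cells for Il1rl1 (266.2 CPM), Ms4a2 (181.3 CPM) and Csf2rb (1180.5 CPM). On dexamethasone day 2 they were the highest cells for Gata2 (564.1 CPM), Kit (5427.2 CPM) and Mpo (14103.3 CPM). The Ms4a2 and Csf2rb values belong to 1 cell, whose other values are Hdc 929.5 and Mpo 9852.7 CPM. The Gata2 and Kit values belong to the pair of cells with the highest Cpa3, and the Mpo value to another cell of that plate with Gata1 at 2.98 CPM. Outside the kept cells, 1 of the 12 removed wells held 14 Cpa3 counts.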

How the results depend on the processing

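The number of genes called rested on the model and on single plates. Between Cpa3-high and no Cpa3, edgeR called 1 gene, and 6 with at least 1 cell in a sum, 15 after thinning, 2 at 20 CPM, 0 with RLE scaling, 0 at 5 CPM and 0 without cells with 5 megakaryocyte genes (1699, 1869 and 1535 genes at an unadjusted p under 0.05). DESeq2 called 1377 and limma 214. Without the plate as a block (no pairing of classes within plates) edgeR called 91. Without wells under 5% of the Cpa3 count of a well on the same index, an alternative chosen after seeing the data, it called 0 (1096 at an unadjusted p under 0.05). Leaving out 1 plate gave 0 (dexamethasone day 1) to 16 (control day 3 or dexamethasone day 2). Between Cpa3-high and Cpa3-low the counts were 1 in edgeR, 8 with at least 1 cell in a sum, 10 after thinning, 0 with RLE scaling, 0 at 5 CPM and 0 without cells with 5 megakaryocyte genes (1569, 1574 and 1355 at an unadjusted p under 0.05), 1409 in DESeq2, 86 in limma, 6 without the block, and 0 to 15 leaving out 1 plate. Between Cpa3-low and no Cpa3 DESeq2 called 402, and edgeR 0 in each leave-out (0 to 0) and without the block. Positive fold changes made up 28.5% of genes in Cpa3-high against no Cpa3, 35.1% with RLE scaling, 44.2% in DESeq2 and 39.3% in limma.

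The difference in the share of cells with a Cpa3 count (5.14 points) was -1.65 without wells sharing an index with a well at 100 CPM or more and -2.12 with wells under 5% of the Cpa3 count of a well on the same index counted as without Cpa3, both chosen after seeing the data. It ran from -1.80 (without dexamethasone day 2) to 11.27 (without dexamethasone day 3) leaving out 1 plate. The difference in the Cpa3-high share (-0.32 points) was 0.29 after thinning, 0.05 at 5 CPM, 0.03 at 20 CPM and 1.18 without cells with 2 neutrophil and monocyte genes, -1.05 at 100 CPM and -1.76 with wells under 5% of a well on the same index counted as without Cpa3, and ran from -2.09 (without control day 2) to 2.69 (without control day 1). Il1rl1 changed direction, to a log2 fold change of -0.14 in limma and -0.32 without control day 1, and ran from there to 2.51 (without dexamethasone day 1) leaving out 1 plate. The other 23 of 24 genes with a fitted fold change kept their direction under every alternative run, and 18 genes that the main analysis did not call were called under at least 1 of them. The cause of these changes was not tested. The 9 list scores recomputed kept their sign without each plate.

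Not run were Cpa3-high at 100 CPM and Cpa3-high without cells with 2 neutrophil and monocyte genes, which left too few sums, the interaction with dexamethasone, and Cpa3-low cells without index sharing.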
